A study of Mus musculus with 6 samples.

Results

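The genes described are the aryl hydrocarbon receptor (AHR) pathway genes Ahr, Arnt, Ahrr, Tiparp, Cyp1a1 and Cyp1b1, which are 6 of the 53278 genes measured by RNA-seq in adipose ILC2s. They were chosen by gene name, and the set was proposed with the normalized counts of these same libraries in view. Their differences between DTA-1 and isotype control are therefore given as values with errors and without a p. All 6 rows were found, and all 6 passed the filter on low counts, which kept 14361 genes. The type-2 innate lymphoid cells (ILC2s) came from visceral adipose tissue of C57BL/6 mice aged 8 weeks that had received 1 µg of IL-33 in each of 3 injections, and were sorted as lineage-negative cells bearing CD45, ST2 and CD117. Cells of both groups were then cultured with IL-2 and IL-7 at 10 ng/mL each. The DTA-1 group also received 5 µg/mL of DTA-1, an agonistic antibody to the costimulatory receptor GITR, and the control group received the isotype control antibody. Each group had 3 libraries, each made from 10 ng of RNA. The labels and the methods of the paper give 48 h of culture and its results text a shorter time, so the time is uncertain. The labels do not say whether the libraries came from separate mice or cultures, so every error and p below measures the spread between these libraries, which may be technical.

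AHR is a transcription factor of the bHLH-PAS family that is switched on by small molecules, among them dioxin-like pollutants and indoles made from tryptophan. Without a ligand it is held in the cytosol by chaperones that include HSP90 and p23. With a ligand it enters the nucleus, pairs with ARNT and binds xenobiotic response elements, whose core reads GCGTG. It induces Cyp1a1 and Cyp1b1, whose enzymes oxidize many of its ligands, together with Ahrr, which encodes a repressor that competes for ARNT and the element, and Tiparp, which encodes an ADP-ribosyltransferase that modifies AHR and lowers its activity. In innate lymphoid cells the receptor is best known for maintaining the ILC3s of the intestine.

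Promoter sequence is shown for the receptor's induced genes, since the core element is the letter pattern that they are known to share. Of the 6 genes 5 matched the RefSeq promoter table used here, on GRCm38.p6. The lines below give the 250 bases before the RefSeq start, 5′ to 3′ on the strand of the gene, with each GCGTG on that strand, or CACGC where the core lies on the opposite strand, in capitals. The windows are chr13:74292332-74292581 (minus strand) for Ahrr, chr3:65528197-65528446 (plus strand) for Tiparp, chr9:57697363-57697612 (plus strand) for Cyp1a1 and chr17:79715062-79715311 (minus strand) for Cyp1b1. RefSeq starts can differ from the gene bounds in the deposited table, which are those printed with each gene further on. The Cyp1a1 window lies inside those bounds and the Tiparp window reaches past the start there.
Ahrr: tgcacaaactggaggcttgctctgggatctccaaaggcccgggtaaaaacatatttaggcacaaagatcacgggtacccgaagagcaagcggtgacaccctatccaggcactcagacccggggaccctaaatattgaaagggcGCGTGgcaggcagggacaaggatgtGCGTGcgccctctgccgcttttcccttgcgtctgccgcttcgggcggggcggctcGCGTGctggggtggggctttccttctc
Tiparp: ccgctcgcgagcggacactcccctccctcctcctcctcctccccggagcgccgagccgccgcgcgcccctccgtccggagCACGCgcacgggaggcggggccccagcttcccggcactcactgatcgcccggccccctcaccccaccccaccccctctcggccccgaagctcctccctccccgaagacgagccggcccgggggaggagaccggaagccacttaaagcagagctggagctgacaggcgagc
Cyp1a1: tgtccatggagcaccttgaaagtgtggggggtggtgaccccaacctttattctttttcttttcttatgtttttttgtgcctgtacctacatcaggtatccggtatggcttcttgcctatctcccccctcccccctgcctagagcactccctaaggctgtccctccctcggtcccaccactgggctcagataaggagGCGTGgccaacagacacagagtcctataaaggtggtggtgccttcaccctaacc
Cyp1b1: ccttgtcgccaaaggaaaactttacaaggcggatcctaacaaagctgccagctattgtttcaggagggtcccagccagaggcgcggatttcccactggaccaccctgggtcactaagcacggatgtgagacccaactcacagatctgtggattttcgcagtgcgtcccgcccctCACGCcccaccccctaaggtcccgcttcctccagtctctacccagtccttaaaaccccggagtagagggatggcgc
Ahrr held 3 cores, beginning 107, 82 and 27 bases before the start, all on the strand of the gene. Tiparp, Cyp1a1, Cyp1b1 and Arnt held 1 core each. Of 32851 promoter windows of this length, 28.2% held at least 1 core on either strand and 2.77% held 3 or more. The longer form TNGCGTG, which contains the core, was found in the Ahrr window only among these 5 genes and in 4.1% of all windows. The core is also a form of the hypoxia response element, and a match is a description of letters, not of binding. Only these 250 bases were searched, so elements farther from the start would not be seen.

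The total count ranged from 30569351 to 35131329 per library, so a count of 0 allows up to 3 counts, or 0.0854 to 0.0981 CPM, for counting error only. CPM is the count of a gene scaled to a common library total, here after TMM scaling. All 12 ILC2 markers passed the filter and summed to 13632 to 14476 CPM in isotype control and 14656 to 19085 in DTA-1. Il5 alone made up 5063 to 5493 CPM of the sum in isotype control and 5627 to 9695 in DTA-1. With DTA-1 5 of the 12 had a higher and 7 a lower mean, and their median log2 fold change was −0.03. Adipocyte markers summed to at most 0.454 CPM and ILC3 markers to 0.961 to 1.94, with Il17a, Il23r and Ncr1 at 0 throughout. Cd8a, Ms4a1, C1qb and Cdh5 were also at 0 in every library. The T cell and B cell lists summed to 43.5 to 57.1 and 16.6 to 18.2 CPM, most of it from Cd3g and Cd79b. The endothelial list, mostly Pecam1, summed to 18.4 to 24.4 CPM in isotype control and 10.6 to 18.3 in DTA-1, and the epithelial list, mostly Epcam, to 78.0 to 85.8 and 51.4 to 79.2 CPM. In the endothelial and epithelial lists 1 gene each was called lower without DTA-1 replicate 1, against 0.161% of all genes. In the ILC2 list 1 gene was then called higher, against 0.583% of all genes, and 1 lower. Macrophage markers summed to 6.44 to 12.2 CPM, and those of mast cells and basophils to 16.5 to 21.7 in isotype control and 16.1 to 44.9 in DTA-1. The library labelled DTA-1 replicate 1 stood apart from the other DTA-1 libraries. With it, edgeR called 0 of 14361 genes (Benjamini-Hochberg p below 0.05 with 1.5-fold or more), and 337 on the unadjusted p. Without it 111 of 14911 (0.744%) were called, 0.583% higher and 0.161% lower. Values without it are given for each of the 6 genes and for each related gene that is then called.

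Levels of different genes were compared as CPM per kb of exon. Tiparp was the most abundant of the 6, with a median of 26.5 CPM per kb over the 6 libraries. Arnt followed at 6.89, Ahr at 3.30 and Ahrr at 1.75 CPM per kb, and the ranges of these 4 genes over the libraries did not overlap. Cyp1a1 had a median of 0.937 and Cyp1b1 of 0.355 CPM per kb, and their ranges of 0.183 to 2.94 and 0.131 to 0.777 overlapped each other and, for Cyp1a1, that of Ahrr. The receptor and its partner were thus both readily detected in every library, and the CYP1 enzyme genes had the lowest medians of the 6 per exon kb.

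**Figure D1:**
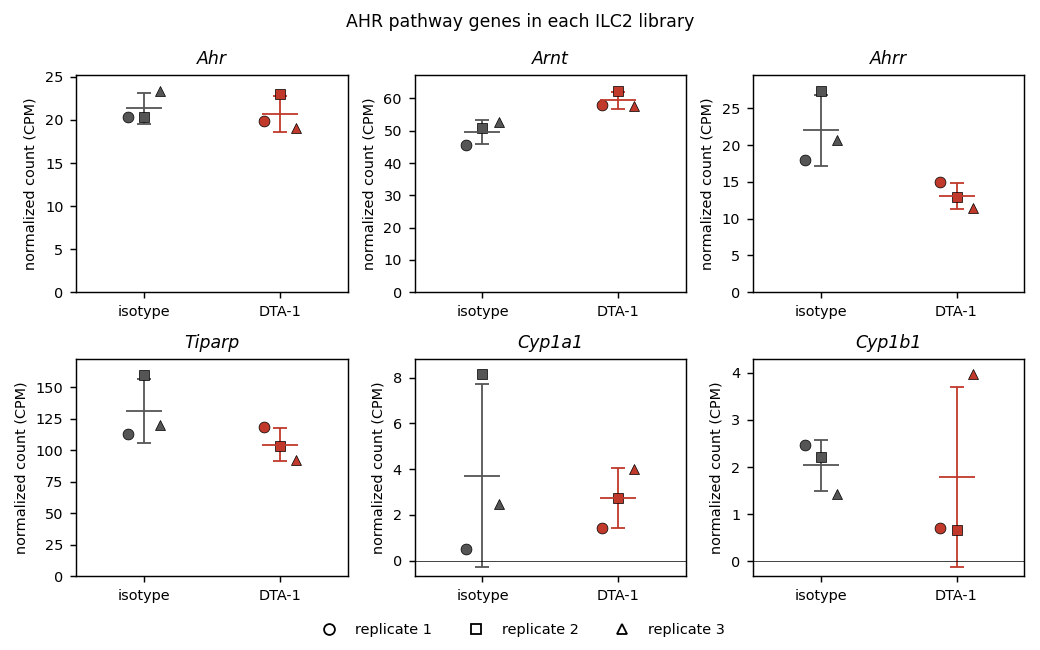
Normalized counts (CPM after TMM scaling, linear axes) of the 6 AHR pathway genes in each library, grouped as isotype control (grey) and DTA-1 (red), with the marker shape giving the replicate and the bars the mean ± SD of 3 libraries. All DTA-1 libraries lie below all isotype control libraries for Ahrr and above them for Arnt, and isotype replicate 2 is the highest library for Ahrr, Tiparp and Cyp1a1.

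Ahrr, the repressor gene (chromosome 13, 74211118 to 74292332), had the largest log2 fold change of the 6 genes when all libraries were used, though not with every library left out in turn. It had 18.0, 27.4 and 20.7 CPM in isotype control replicates 1, 2 and 3 and 15.0, 12.9 and 11.4 CPM in DTA-1 replicates 1, 2 and 3. Every DTA-1 library lay below every isotype control library, the library labelled DTA-1 replicate 1 included. The means were 22.0 ± 4.82 and 13.1 ± 1.82 CPM (SD, n = 3 each), so the level in isotype control was 1.68 times that in DTA-1. The log2 fold change was −0.75 (standard error 0.17, 95% interval −1.13 to −0.36). Without the library labelled DTA-1 replicate 1 it was −0.86, and without isotype control replicate 2, the highest library, it was −0.56. As RNA of a whole culture was measured, fewer cells expressing a gene and less RNA per cell cannot be told apart.

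Tiparp, the ADP-ribosyltransferase gene (chromosome 3, 65528410 to 65555519), differed in the same direction by a smaller amount. Its normalized counts were 113, 159.8 and 120.3 CPM in isotype control replicates 1 to 3 and 118, 103 and 92.1 CPM in DTA-1 replicates 1 to 3. DTA-1 replicates 2 and 3 lay below every isotype control library, and DTA-1 replicate 1 lay between isotype control replicates 1 and 3, so the groups overlapped. The means were 131 ± 25.1 and 104 ± 13.0 CPM (SD, n = 3 each) and the log2 fold change was −0.33 (standard error 0.13, 95% interval −0.61 to −0.05). Isotype control replicate 2 carried much of it, since the log2 fold change was −0.16 without that library. It was −0.43 when DTA-1 replicate 1 was left out. An antisense pseudogene that overlaps Tiparp had at most 76 counts, against 2937 or more for Tiparp, and whether counting used strand is not given in the sources used here.

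Ahr itself, the receptor gene (chromosome 12, 35497974 to 35535039), was at a like level in both groups. It had 20.3, 20.3 and 23.4 CPM in isotype control and 19.9, 23.0 and 19.1 CPM in DTA-1 replicates 1 to 3, and the groups overlapped. The log2 fold change was −0.05 (standard error 0.13), and its 95% interval of −0.32 to 0.23 lies within a 1.5-fold change in either direction. With single libraries left out it ran from −0.12 to 0.02, and was −0.02 for the omission of DTA-1 replicate 1, so the sign of this small difference was not fixed.

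Arnt, the partner gene (chromosome 3, 95434388 to 95497241), was higher with DTA-1 by a small margin. It had 45.6, 50.7 and 52.6 CPM in isotype control replicates 1 to 3 and 57.9, 62.4 and 57.8 CPM in DTA-1 replicates 1 to 3. All DTA-1 libraries, the library labelled replicate 1 among them, lay above all isotype control libraries. The means were 49.6 ± 3.64 and 59.4 ± 2.62 CPM (SD, n = 3 each), a log2 fold change of 0.26 (standard error 0.09, 95% interval 0.06 to 0.45), which is 1.2-fold. The interval stays below 1.5-fold, and the value lay between 0.20 and 0.30 in every alternative tried, at 0.28 for the omission of DTA-1 replicate 1.

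The CYP1 enzyme genes varied more between libraries of a group than between the groups. Cyp1a1, the classical reporter of receptor activity (chromosome 9, 57687928 to 57703825), was counted 18, 287 and 87 times in isotype control replicates 1 to 3 and 44, 86 and 128 times in DTA-1 replicates 1 to 3. As normalized counts this was 0.509, 8.18 and 2.47 CPM in isotype control, a 16.1-fold range within the group, and 1.42, 2.75 and 4.02 CPM in DTA-1. All DTA-1 values fell inside the isotype control range. The log2 fold change was −0.44 (standard error 0.73, 95% interval −2.06 to 1.17), and it turned to 0.88 without isotype control replicate 2 and to −0.96 without isotype control replicate 1. With DTA-1 replicate 1 left out it was −0.14.
Cyp1b1 (chromosome 17, 79706953 to 79715042), which also oxidizes steroids, had 2.46, 2.22 and 1.42 CPM in isotype control replicates 1 to 3 and 0.712, 0.673 and 3.98 CPM in DTA-1 replicates 1 to 3. DTA-1 replicate 3 was its highest library and the other DTA-1 libraries its lowest. The log2 fold change was −0.18 (standard error 0.61, 95% interval −1.53 to 1.17), fell to −1.55 without DTA-1 replicate 3 and was 0.22 without DTA-1 replicate 2 and 0.20 without DTA-1 replicate 1. Among the DTA-1 libraries a list of 10 fibroblast markers was highest in replicate 3, as was Cyp1b1. It summed to 1.00, 1.31 and 4.89 CPM in DTA-1 replicates 1 to 3, and 10.5, 3.11 and 12.4 CPM in isotype control replicates 1 to 3. In isotype control its sum was highest in replicate 3, where Cyp1b1 was lowest of that group. Col3a1 made up 2.89 CPM of the sum in DTA-1 replicate 3. Pdgfra and Fbn1 were at 0 in all DTA-1 libraries, whereas Pdgfrb was highest in DTA-1 replicate 1 (0.873 CPM) and Fap was at 0 in all isotype control libraries. None of the 10 was at 0 in every library, and 6 passed the filter, with a median log2 fold change of −2.81. With all libraries edgeR called 0 of the 6, and DESeq2 called 3 of the 10, all lower (0.0728% of all genes). Without DTA-1 replicate 1 edgeR called 3, all lower (0.161% of all genes). The part of the 10 markers in the Cyp1b1 values was not tested.

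**Figure D2:**
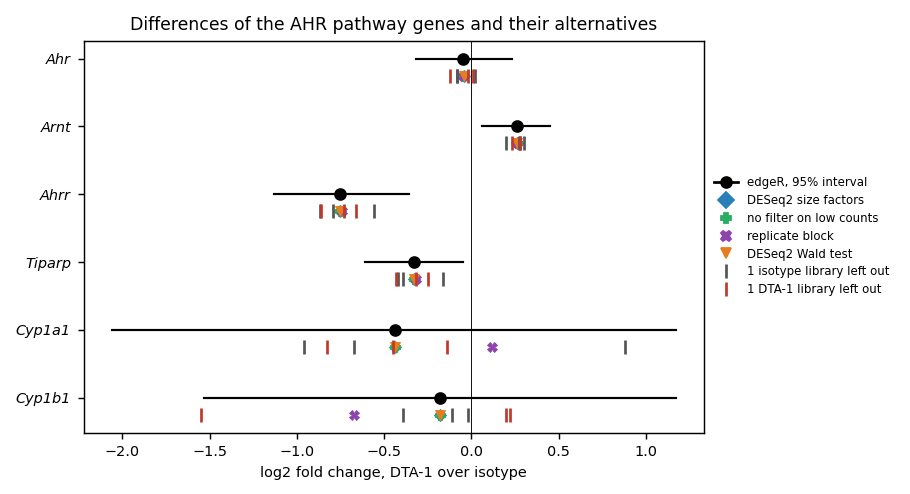
Log2 fold change of each AHR pathway gene, DTA-1 over isotype control (black dot, edgeR) with its 95% interval (black line), and below it the same value under each alternative, where short vertical bars leave out 1 library (grey for isotype control, red for DTA-1) and coloured symbols are the other settings. Ahrr and Tiparp stay below 0 and Arnt above 0 throughout, whereas Cyp1a1 and Cyp1b1 cross 0.

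None of the 6 genes was called by edgeR with all libraries (0 genes, background 0.0%). On the unadjusted p with 1.5-fold or more there was 1, Ahrr, against 2.35% of all genes tested, of which 1.09% were higher and 1.26% lower. DESeq2's Wald test called 1 of the 6, again Ahrr, against 0.152% of all genes (25 of 16489), with 0.0788% higher and 0.0728% lower. Without DTA-1 replicate 1 edgeR called 0 of the 6, and on the unadjusted p 1 (Ahrr), where 1.8% of all genes were higher and 2.23% lower. That count was 0 without isotype control replicate 2, where Ahrr was under 1.5-fold and 220 of all 14892 genes were higher and 177 lower. It was 2 (Ahrr and Cyp1b1, both lower) without DTA-1 replicate 3, where 109 of all 14949 genes were higher and 233 lower. The groups did not overlap for 1 gene in the lower direction (Ahrr, background 6.03%) and 1 in the higher direction (Arnt, background 5.26%). Because these genes were proposed from the same contrast, nothing further is read from these counts. Over the 10 alternatives Ahrr, Tiparp and Arnt kept their sign in all 10, and Ahr, Cyp1a1 and Cyp1b1 in 8 of 10 each.

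Ratios between members within a library do not depend on how libraries are scaled. Of 4 ratios computed per exon kb, chosen after the levels were seen, the Tiparp to Ahrr ratio differed most clearly between the groups relative to its spread. It was 13.6, 12.6 and 12.6 in isotype control replicates 1 to 3 and 17.0, 17.3 and 17.5 in DTA-1 replicates 1 to 3, with means of 12.9 ± 0.594 and 17.3 ± 0.248 (SD, n = 3 each). The isotype control libraries spanned 1.52-fold in Ahrr and 1.41-fold in Tiparp, yet the ratio of these genes stayed within a narrow band in each group. The Ahrr to Ahr ratio was 0.579, 0.879 and 0.579 in isotype control and 0.494, 0.366 and 0.390 with DTA-1, with no overlap. The Ahr to Arnt ratio was also lower in every DTA-1 library, with 0.579, 0.521 and 0.578 against 0.446, 0.478 and 0.430. The Tiparp to Ahr ratio overlapped, at 7.27 to 11.1 in isotype control and 6.35 to 8.39 in DTA-1. These ratios restate the levels above and carry no test.

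**Figure D3:**
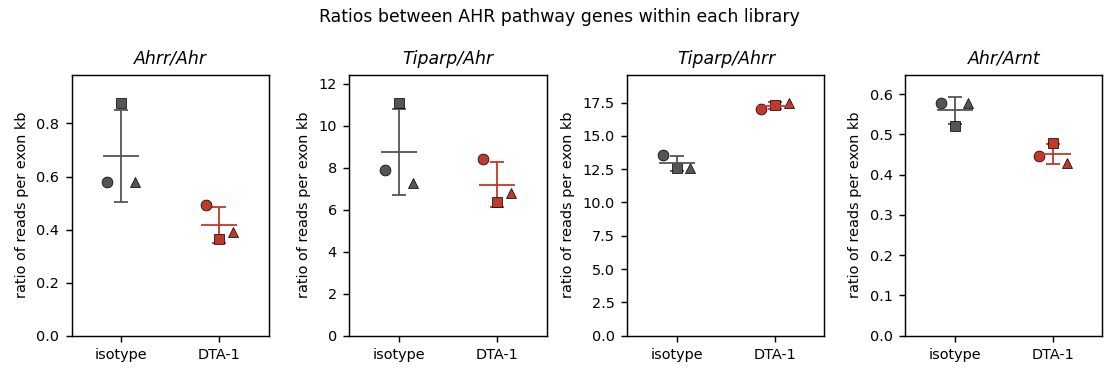
Ratios of reads per exon kb between AHR pathway genes within each library (linear axes from 0), for isotype control (grey) and DTA-1 (red), with circles, squares and triangles for replicates 1, 2 and 3 and bars for the mean ± SD of 3 libraries. The Tiparp to Ahrr ratio is 12.6 to 13.6 in isotype control and 17.0 to 17.5 in DTA-1.

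The receptor's chaperones and coactivators were expressed throughout, and all 13 of that list were tested. By edgeR 0 were called, 0 passed at the unadjusted p and 1.5-fold and DESeq2 called 0. Their median log2 fold change was 0.02, against −0.01 over all genes tested. The highest CPM, uncorrected for length, were those of Hsp90ab1 (1033 ± 10.7 CPM in isotype control and 1139.9 ± 104 in DTA-1), Hsp90aa1 (379 ± 19.5 and 414 ± 17.6), Ptges3, which encodes p23 (169.8 ± 10.4 and 167 ± 7.70), and the chromatin remodeller gene Smarca4 (169.8 ± 8.35 and 174 ± 6.01). For the acetyltransferase gene Ep300, named after its values were seen, every DTA-1 library lay below every isotype control library (38.8 to 44.0 against 44.3 to 54.3 CPM). Its log2 fold change was −0.30 (edgeR adjusted p = 0.632).

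Of 23 further genes that AHR is known to induce or maintain, 15 were tested and 8 were below the filter. Cyp1a2, Ugt1a6a, Ugt1a6b, Gsta1, Gpr15, Il22, Il21 and Lag3 made up the latter, with at most 29 counts in any library and Il21 at 0 in all. Of the 15 tested, 7 had a higher and 8 a lower mean with DTA-1, and the median log2 fold change was −0.05. None was called by edgeR (0 genes, 0 at the unadjusted p and 1.5-fold) or by DESeq2 (0 genes), and 0 had groups that did not overlap. Nqo1, a quinone reductase gene of the classical AHR battery, had 420.5 ± 17.6 CPM in isotype control and 403 ± 35.7 in DTA-1, and the cytokine-signalling inhibitor gene Socs2 had 169 ± 10.4 and 171 ± 3.46 CPM.
With DTA-1 replicate 1 left out, edgeR called 2 of the 16 list genes then tested, in opposite directions, against 0.744% of all genes. Areg, which encodes the tissue-repair factor amphiregulin, had 194, 193 and 194 CPM in isotype control replicates 1 to 3 and 188, 334 and 317 CPM in DTA-1 replicates 1 to 3. Its log2 fold change was 0.53 (edgeR adjusted p = 0.627) and, with that library left out, 0.75 (edgeR adjusted p = 0.000163, from 0.000163 to 0.999 over the alternatives). Aldh3a1, an aldehyde dehydrogenase gene of the AHR battery, had 11.3, 12.3 and 7.82 CPM in isotype control and 11.2, 4.07 and 5.05 CPM in DTA-1. Its log2 fold change was −0.63 (edgeR adjusted p = 0.736) and, with that library left out, −1.20 (edgeR adjusted p = 0.0480, from 0.0480 to 0.999).

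Among the genes that make, carry or clear tryptophan-derived ligands, several amino acid transporter genes had high counts, and the genes that open the tryptophan ring had few or none. Of the 24 genes in the list 18 were tested. Slc3a2 and Slc7a5, whose products form an amino acid transporter that also carries kynurenine, were abundant. Slc3a2 had 1025 ± 44.0 CPM in isotype control and 979 ± 65.3 with DTA-1, and Slc7a5, also in the target list, had 584 ± 8.91 and 606 ± 17.2 CPM. Slc7a8, a second light chain of such transporters, had 775 ± 36.1 and 788 ± 31.7 CPM, and Wars, the tryptophanyl-tRNA synthetase gene, had 128 ± 12.2 and 136 ± 9.36 CPM. The enzymes that open the tryptophan ring, Ido1, Ido2 and Tdo2, had at most 7, 1 and 10 counts in any library, and Kynu, Aadat and Acmsd had 0 in all. By edgeR 0 of the 18 genes were called, and DESeq2 called 0. At the unadjusted p and 1.5-fold 1 was higher and 1 lower, against 1.09% and 1.26% of all genes tested. The median log2 fold change was 0.04.
Tph1, which encodes the tryptophan hydroxylase of serotonin synthesis, was the 1 list gene called without the library labelled DTA-1 replicate 1. It had 21.3, 16.8 and 17.6 CPM in isotype control replicates 1 to 3 and 19.2, 62.3 and 57.1 CPM in DTA-1 replicates 1 to 3. In DTA-1 replicate 1 it was thus within the isotype control range. The log2 fold change of Tph1 was 1.32 (edgeR adjusted p = 0.627) with a standard error of 0.39. Leaving out that library gave 1.68 (edgeR adjusted p = 0.000121, from 0.000121 to 0.999). Tph1 is also expressed by mast cells, whose markers summed to 16.1, 44.9 and 33.1 CPM in DTA-1 replicates 1 to 3, against 16.5 to 21.7 in isotype control. Their sum was highest in the libraries where Tph1 and Areg were. Cpa3 was too, at 19.4 and 12.8 CPM in DTA-1 replicates 2 and 3 and at most 7.49 elsewhere. Cma1 was too, at 14.2 and 10.9 CPM against at most 4.85. Other markers did not all follow. Tpsb2 had 4.96 CPM in DTA-1 replicate 3 and 6.04 in isotype control replicate 2. Fcer1a had 2.63 CPM in DTA-1 replicate 2 and 2.85 in isotype control replicate 2. The basophil gene Mcpt8 was not highest there (0.735, 0.656 and 1.16 CPM in isotype control, 0.420, 0.192 and 0.690 with DTA-1). Without DTA-1 replicate 1 edgeR called 2 of the 5 tested markers higher, against 0.583% of all genes. The lineage antibodies of the sort included one to FcεRI, which mast cells and basophils bear, and the part of such cells in these values was not tested. The groups did not overlap for 3 tested genes of the list (all genes tested, 11.3%), Kyat1 (4.36 to 4.95 CPM in isotype control and 5.70 to 7.02 in DTA-1), Aldh2 (54.0 to 57.7 and 37.9 to 50.7) and Ddc (0.907 to 1.22 and 0.188 to 0.513), which were named after their values were seen.

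Among the bHLH-PAS relatives, 11 of 16 were tested and 0 were called by edgeR or by DESeq2. At the unadjusted p and 1.5-fold 1 was higher and 2 were lower, against 1.09% and 1.26% of all genes tested. The median log2 fold change was −0.09. Hif1a, the oxygen-regulated factor that competes with AHR for ARNT, had the highest CPM of the list, at 894 ± 71.8 CPM in isotype control and 1065 ± 100.3 in DTA-1, with overlapping groups. Its log2 fold change was 0.25 (edgeR adjusted p = 0.627). Leaving out DTA-1 replicate 1 gave 0.33, which is under 1.5-fold, with an edgeR adjusted p of 0.0478 (0.0478 to 0.999 over the alternatives). The circadian factors Arntl (63.0 ± 4.42 and 59.4 ± 0.793 CPM), Npas2 (44.4 ± 6.74 and 51.5 ± 6.79) and Clock (12.9 ± 2.71 and 10.9 ± 3.10) also overlapped between the groups. Arnt2, the close relative of Arnt, was low in both groups at 0.840 ± 0.451 and 0.697 ± 0.538 CPM.
In 2 tested genes of the list, chosen after their values were seen, the groups did not overlap (all genes tested, 11.3%). Epas1, which encodes the ARNT partner HIF-2α, had 6.64, 8.18 and 6.86 CPM in isotype control and 11.2, 13.3 and 11.3 CPM in DTA-1. Its log2 fold change was 0.72 (edgeR adjusted p = 0.627). The circadian gene Per3 had 8.11, 11.9 and 12.2 CPM in isotype control and 7.28, 5.51 and 7.59 CPM in DTA-1, and its log2 fold change was −0.66 (edgeR adjusted p = 0.627).

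The list of ADP-ribosyltransferase relatives of Tiparp also holds Parg, Macrod1 and Macrod2, whose products remove ADP-ribose. All 18 genes of the list were tested, 0 were called by edgeR or DESeq2, 0 passed at the unadjusted p and 1.5-fold, and 0 had groups that did not overlap. The highest CPM, uncorrected for length, were those of Tnks2 (144 ± 18.6 CPM in isotype control and 150 ± 14.4 in DTA-1), Parp1 (129 ± 7.60 and 138 ± 16.0), Zc3hav1 (122 ± 4.54 and 135 ± 14.4) and Parp10 (86.1 ± 8.39 and 86.3 ± 3.82). Per exon kb the order differed, with medians of 25.2 for Parp1, 20.1 for Parp10, 19.1 for Zc3hav1 and 14.1 for Tnks2, beside 26.5 for Tiparp.

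Of 92 further cytochrome P450 genes 10 were tested and 63 had 0 counts in all libraries. The list held 0 genes called by edgeR or DESeq2, and 0 at the unadjusted p and 1.5-fold. Cyp11a1, which encodes the enzyme that converts cholesterol to pregnenolone, had 1867 ± 102 CPM in isotype control and 1986 ± 79.2 in DTA-1, and at a median of 401 CPM per kb it exceeded Cyp1a1 (0.937) by far. Its log2 fold change was 0.09 (edgeR adjusted p = 0.790). The next were Cyp4f16 (56.8 ± 2.21 and 49.7 ± 3.98 CPM, each DTA-1 library below each isotype control library), Cyp20a1 (23.8 ± 3.20 and 23.1 ± 5.16) and Cyp4v3 (18.0 ± 4.43 and 20.4 ± 3.12). Groups also did not overlap for Cyp2s1, named after its values were seen, at 0 to 0.820 CPM in isotype control and 1.19 to 1.69 in DTA-1.
Over all 6 lists 84 of 184 genes were tested, 41 with a higher and 43 with a lower mean in DTA-1. The groups did not overlap for 3 in the higher direction and 6 in the lower, with background shares of 5.26% and 6.03%.

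**Figure D4:**
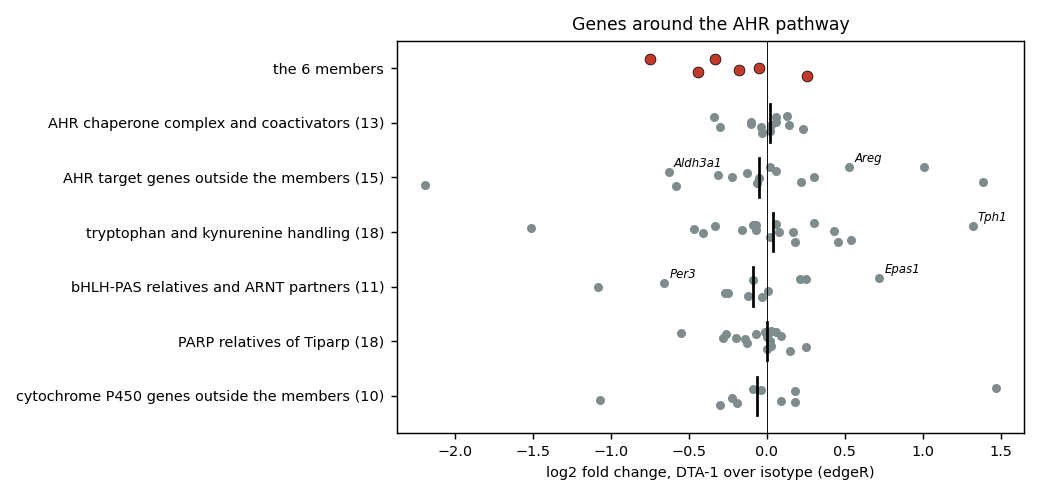
Log2 fold change (DTA-1 over isotype control, edgeR) of the 6 AHR pathway genes (red) and of the tested genes of 6 lists of related genes (grey dots, number tested in brackets), with a black bar at the median of each list. The medians lie between −0.09 and 0.04, and the named genes are those called without DTA-1 replicate 1 and a pair with groups that did not overlap.

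Finally, the genes whose pattern over the 6 libraries was most like that of each member were taken as those with the highest Pearson r of log2(CPM + 1), among genes with a mean of at least 10 CPM. They were Foxn3 (r = 0.993) and Pnrc2 (0.990) for Ahrr, Dgcr2 (0.995) and Akr1b10 (0.994) for Tiparp, and Rlim (0.991) and Cstf2t (0.989) for Arnt. For Ahr they were Bnip1 (0.994) and Prdm2 (0.975), for Cyp1a1 Nfatc3 (0.997) and Rab8b (0.993), and for Cyp1b1 Spata2 (0.988) and Cyp4f13 (0.978). With 8722 or 8723 genes compared over 6 libraries, 7 to 28 genes reached an r of 0.95 for each member, so such values are a description of likeness only. Foxn3, as an example, had 28.9, 34.0 and 30.4 CPM in isotype control and 26.8, 24.8 and 24.8 CPM in DTA-1, so its highest library was that of Ahrr on a narrower scale.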

How the data were processed

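RNA was sequenced from sorted ILC2s in 3 isotype control and 3 DTA-1 libraries. Per the labels, the authors processed the reads with bcl2fastq 2.17.1.14, STAR 2.5.3a and Partek on mm10, and deposited un-normalized expected counts (estimated, not always whole). The annotation release, the strand setting and the rule for shared reads are not given in the sources used here. Of all values, 83.1% were whole within 0.01.

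Expected counts were rounded and tested with edgeR 4.0.16 in R 4.3.3 (filterByExpr by group, TMM, robust quasi-likelihood F test, Benjamini-Hochberg adjustment over all 14361 genes kept). A called gene had an adjusted p under 0.05 and at least 1.5-fold, the study's limits. The standard error is the log2 fold change over the root of F. Exon lengths are the union of GENCODE M21 exons within the bounds of each gene in the table. Of the 6 members 5 had the same start in both, the exception being Cyp1b1. On simulated data 175 of 200 genes changed 2-fold were recovered, with 9 other calls among 14145 genes. The simulation gave every gene the same spread, changed only genes above a minimum mean count and held no library that stood apart. It therefore does not show how many such changes would be found in these data.

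The members and lists were chosen with earlier results of these data known. The genes named are the members, the list genes called with all libraries or with 1 left out, the 4 with the highest mean CPM in each list and the 2 most like each member, and others are marked as named after their values were seen. Single values of some list genes are not reported here. Alternatives were DESeq2's size factors, DESeq2 1.42.0's Wald test, no filter, the replicate number as a block and each library left out in turn.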

Additional observations from a re-analysis of the deposited data

How the results depend on the processing

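The count of called genes was 0 with all libraries and 0 with DESeq2's size factors in edgeR. It was 2 without the filter on low counts (Ctgf and Pdgfra), 25 with DESeq2's Wald test, and from 0 to 111 with each library left out, where 111 was without DTA-1 replicate 1 and every other omission gave 0. Of the AHR pathway list genes 0 were called in all settings but the omission of DTA-1 replicate 1. That omission called 3 of the 87 then tested (Areg, Aldh3a1 and Tph1), against 0.744% of all genes, so the list count ran from 0 to 3. Of the 6 members 1, Ahrr, was called by DESeq2's Wald test, against 0.152% of all genes (25 of 16489), and 0 in each of the other settings.

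No pairing of the libraries by replicate number was seen, though 3 libraries per group cannot exclude one. Deviations from the group means of same-numbered libraries had r between −0.021 and 0.021 across genes, and 1 of 3 isotype control libraries correlated best with its own number. With the replicate block 1 gene was called (Chil3), and 0 of the pathway list genes and members. The log2 fold change of Cyp1a1 was 0.12 and of Cyp1b1 −0.67 under the block, against −0.44 and −0.18. For Cyp1b1 leaving out DTA-1 replicate 3 gave −1.55. For these changes with a left-out library the cause was not tested. CPM on total counts moved no member's level by more than the spread between libraries. Counts of 18 to 287 limit what can be seen of Cyp1a1, and of 21 to 127 for Cyp1b1.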

Other observations

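Isotype control replicate 2 was the highest of the 6 libraries for Ahrr, Tiparp and Cyp1a1, which are 3 of the 6 members, while 15.7% of all genes tested were highest in it. Of the 15 tested AHR target genes outside the members, 4 were highest in the same library, namely Nqo1, Aldh3a1, Entpd1 and Kit, and another 4 in isotype control replicate 1. This pattern was noticed after the values were seen and was not tested. Ahr itself was highest in isotype control replicate 3 and Arnt in DTA-1 replicate 2.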
